A study of Rattus norvegicus with 939 samples.

Results

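The genes described are 8 genes that mark the endothelial cells lining the sinusoids of the liver, Lyve1, Kdr, Fcgr2b, Cd93, Fabp4, Pecam1, Stab2 and Tek, followed as a measure of endothelial cells left in cultures of rat hepatocytes. All 8 were found by symbol in the platform annotation, out of 14218 genes measured, and each was read from the probe set with the highest mean over the arrays. The study exposed primary rat hepatocytes to 125 compounds or to the solvent DMSO alone and measured gene expression on 939 microarrays, 826 treated and 113 vehicle, after 0.67 d or 1 d. The labels give neither the rats' strain, sex nor age, nor how the hepatocytes were purified, and every array, vehicle or treated, carried DMSO. Hybridization dates fell into 5 campaigns of 824, 34, 12, 12 and 57 arrays, and the vehicle arrays into 17 sets by the compounds each description names. The comparisons used the first 3 campaigns, with 749 treated arrays at the highest dose of each compound there, usually 3 arrays at each time. One array labelled clofibrate at 0.67 d and one labelled gemfibrozil at 1 d, of the same hybridization day, went against their labels. Over all genes, as deviations from the vehicle mean, the array labelled clofibrate correlated at 0.13 with the other clofibrate arrays of its time and at 0.89 with the gemfibrozil arrays of that time. The array labelled gemfibrozil correlated at -0.07 with the other gemfibrozil arrays of its time and at 0.49 with the clofibrate arrays. Their labels may have been exchanged, and results that rest on them are given with and without them.

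The liver sinusoid is lined by a thin, perforated endothelium without an organized basement membrane, so that plasma reaches the hepatocytes directly. These cells clear hyaluronan, immune complexes and other waste from the blood through scavenger and Fc receptors, and they depend on vascular endothelial growth factor made by neighbouring cells. A hepatocyte preparation can carry some of them over, and in culture they are known to lose their specialised features quickly. In these bulk arrays, fewer endothelial cells and less RNA per endothelial cell cannot be told apart.

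In role, Lyve1 is a membrane receptor for hyaluronan and Stab2 a large scavenger receptor that takes hyaluronan up. Fcgr2b is the inhibitory Fc receptor for immunoglobulin G, abundant on sinusoidal endothelium, where it binds immune complexes. Cd93 is a lectin-like transmembrane glycoprotein of endothelial and myeloid cells. Kdr is the main signalling receptor for vascular endothelial growth factor and Tek the receptor for the angiopoietins. Pecam1 joins endothelial cells at their borders, and Fabp4 is a fatty acid carrier of capillary endothelium, fat cells and macrophages. Of the 8, Fcgr2b, Cd93, Fabp4 and Pecam1 are also made by macrophages or other leukocytes.

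Promoter sequences of 3 of the 8 genes, Lyve1, Kdr and Stab2, could be matched in RefSeq, assembly GRCr8. The promoters of Lyve1 and Kdr are shown because these genes had the most lower calls over the compounds. Capitals mark AGGAA or its reverse complement TTCCT, a form of the GGAA core bound by ETS factors, a family with many members active in endothelium. Each sequence is the 250 bases before the transcript start that the promoter table uses, which for Kdr lies slightly inside the annotated span of the gene and for Stab2 well inside it. They run on the strand of the gene, at chr1:174410978-174411227 (minus strand) for Lyve1 and chr14:32571813-32572062 (plus strand) for Kdr.
Lyve1: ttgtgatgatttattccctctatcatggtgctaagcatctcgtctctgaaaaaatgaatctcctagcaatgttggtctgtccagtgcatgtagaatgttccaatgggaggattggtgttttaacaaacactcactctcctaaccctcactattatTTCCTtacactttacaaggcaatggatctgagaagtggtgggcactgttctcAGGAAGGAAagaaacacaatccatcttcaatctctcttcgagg
Kdr: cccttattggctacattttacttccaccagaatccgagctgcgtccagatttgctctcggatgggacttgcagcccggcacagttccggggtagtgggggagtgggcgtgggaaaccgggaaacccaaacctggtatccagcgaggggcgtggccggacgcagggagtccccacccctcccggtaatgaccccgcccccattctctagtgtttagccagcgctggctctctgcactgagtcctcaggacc
The Lyve1 window held 3 matches, 2 of them overlapping, the Kdr window 0 and the Stab2 window (chr7:23320563-23320812, minus strand) 4. GGAA and TTCC beside other bases, which the Kdr window does hold, were neither marked nor counted. Over the 33469 rat promoters in the table, 61.0% held at least 1 match, 9.1% at least 3 and 2.5% at least 4. The Lyve1 window was 41.6% G or C and the Kdr window 61.6%. A match is only a run of letters, and no binding was measured here.

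In the vehicle cultures, 5 of the genes varied widely. At 0.67 d the RMA log2 values of Lyve1 ranged over 52 arrays from 4.68 through a median of 7.98 to 9.33. Fcgr2b ranged from 4.09 through 7.52 to 9.16, and Fabp4 from 5.19 through 8.29 to 10.13. Cd93 lay between 4.40 and 8.29 with a median of 6.73, and Kdr between 4.03 and 7.15 with a median of 5.48. Each of these 5 had a larger SD over the vehicle arrays than 98.9% to 99.7% of all genes. The other receptors and the junction gene were flatter. Pecam1 lay between 4.73 and 6.74 with a median of 5.36, and Tek between 4.44 and 6.16 with a median of 5.02. Stab2 was the flattest, between 4.52 and 5.64 with a median of 4.84, and its range over all 939 arrays was 4.17 to 5.98. Stab2 is a defining marker of this endothelium, and its probe set varied little in any of these arrays. Cdh5 and Clec4g, other usual endothelial markers, were not among the genes measured. Hepatocyte genes had a mean log2 value over 11 genes between 11.9 and 12.6 in the vehicle arrays of the first 3 campaigns.

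This spread was laid out by culture day, read from a number that only the vehicle titles carry and that has the form of a date. The titles do not say what it dates, and it was taken as the day cells were set up. Over 51 days, each time's mean being subtracted first, the day means of Fcgr2b spanned 20.4-fold, those of Fabp4 17.2-fold and those of Lyve1 12.5-fold. Cd93 spanned 10.5-fold and Kdr 8.69-fold, against 3.09-fold for Pecam1, 2.74-fold for Tek and 1.74-fold for Stab2. The SD of the day means was 3.15 times the SD within a day for Kdr, 2.43 times for Fabp4, 1.99 times for Lyve1 and 1.08 times for Stab2. Apart from culture day 51, each day held a single array at each time. The SD within a day thus came mostly from its 0.67 d and 1 d arrays, and day and array could hardly be told apart. On culture day 51 at 0.67 d, Lyve1 was 4.68 in replicate 1 and 8.03 in replicate 2. Culture day 52, of campaign 4 and outside these 51 days, had 6 vehicle arrays at 1 d. There Fcgr2b ran from 5.79 to 8.92 and Kdr from 4.31 to 6.52. Arrays of the same day and time could thus differ widely, and the part of the spread that lay between days was not settled. The same days ranked low or high for several genes at once. Culture day 7, in the numbering used here, was the lowest of all days for Lyve1, Fcgr2b, Cd93 and Fabp4. Culture day 42 was the highest for Kdr, Fcgr2b, Cd93, Fabp4 and Tek.

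**Figure D1:**
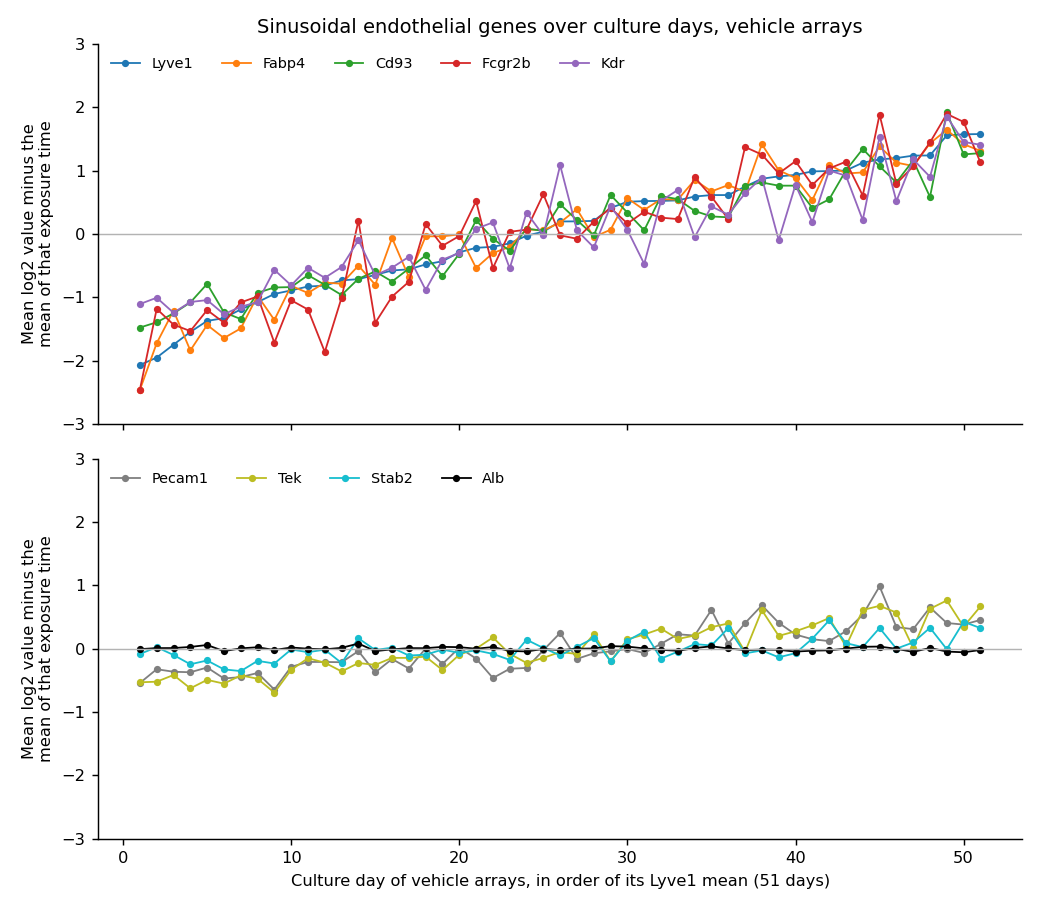
Mean log2 value of each gene, and of the hepatocyte gene Alb, per culture day in vehicle arrays after subtraction of the mean of each exposure time, with days ordered by Lyve1. Fcgr2b, Fabp4, Cd93 and Kdr rise along the order with Lyve1, while Stab2 and Alb stay nearly flat.

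Every pair of the 8 genes moved together over the 51 culture days. Pearson's r ran from 0.51 to 0.97 over the 28 pairs, with a median of 0.86, and all 28 pairs passed an adjusted p of 0.05 in a two-sided permutation test, both for Pearson's r and for Spearman's rho (Benjamini-Hochberg over the 28 pairs). The closest pair was Lyve1 and Fabp4, with r = 0.97 and rho = 0.97, permutation p = 1e-05, the smallest that 100000 permutations can give. The loosest was Cd93 and Stab2, with r = 0.51 and rho = 0.48, permutation p = 0.00011. Within the first campaign alone, over 44 days, r again ran from 0.51 to 0.97, with a median of 0.87. Leaving out for each pair the 2 days farthest from the median gave 0.51 to 0.97, and the arrays of 1 d alone gave 0.43 to 0.96. The same test was not run on pairs of other genes, so no background share stands beside the 28 of 28.

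The 3 nearest genes in pattern for each of the 8 made 24 entries, in which some genes recur. Of these entries, 10 were others of the 8, each time Fabp4, Lyve1 or Cd93, with some pairs counted from both sides. Another 2, Ramp2 and Egfl7, were on the list of 27 other endothelial genes. Over the 88 vehicle arrays of the first campaign, which share culture days, Lyve1 was closest to Fabp4 (r = 0.956), Cd93 (r = 0.953) and Esm1 (r = 0.947), a proteoglycan secreted by endothelium. Kdr was closest to Ramp2 (r = 0.926), a partner of the adrenomedullin receptor, then to Cd93 (r = 0.892) and Cd48 (r = 0.878). Fcgr2b was closest to Cd48 (r = 0.932), a surface protein of blood cells and endothelium, then to Lyve1 (r = 0.923) and Fabp4 (r = 0.921). Tek had Fabp4, Lyve1 and the endothelial adhesion receptor gene Adgrl4 as neighbours (r = 0.857, 0.846 and 0.844). Pecam1 had Ackr3, Adgrf5 and Fabp4 (r = 0.871, 0.854 and 0.852). Cd93 had Lyve1, Amotl1 and Cd48 (r = 0.953, 0.928 and 0.924), and Fabp4 had Lyve1, Inhbb and Cxcr4 (r = 0.956, 0.938 and 0.927). Stab2 had no close neighbour, Lrg1 leading with r = 0.660.

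With time in culture, Fabp4 fell in the vehicle cultures. It was lower at 1 d than at 0.67 d on 51 of 51 culture days, by 0.79 on the log2 scale (SE 0.08, 1.73-fold, adjusted p = 6.66e-13 by limma with the culture day as a block), and was the one gene of the 8 past both bounds, an adjusted p of 0.01 and a 1.5-fold change, against 0.281% of all genes called lower and 0.387% called higher. The others stayed within 1.5-fold. Fcgr2b fell by 0.50 (adjusted p = 0.000112) and was lower on 45 of the days, and Lyve1 fell by 0.45 (adjusted p = 5.08e-05) and was lower on 50. Tek fell by 0.28, Pecam1 by 0.27, Cd93 by 0.26 and Stab2 by 0.23, with adjusted p between 8.70e-09 and 0.00129. Kdr differed by 0.02 (SE 0.05, adjusted p = 0.781) and was lower on 24 days. The median difference was -0.28 over the 8 genes, -0.06 over 27 other endothelial genes, 0.00 over 13 macrophage genes, -0.09 over 11 hepatocyte genes and -0.00 over all genes. Among genes made by hepatocytes, Fabp1 fell by 1.01 (adjusted p = 6.20e-15) and Cyp2e1 by 0.86 (adjusted p = 1.74e-14) over the same interval.

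The main comparison set each compound against the vehicle arrays whose description names it. Over 125 compounds and 8 genes, 160 of 1000 gene and compound pairs were called lower, 16%, and 6 were called higher, 0.6%, where a call is an adjusted p of 0.01 or less and at least 1.5-fold by limma. Over all genes 4.97% of such pairs were called lower and 3.73% higher. Of the lists described below, hepatocyte genes were lower in 17.8% of pairs and fatty acid binding proteins in 17.2%. Macrophage genes were lower in 6.71% and other endothelial genes in 2.99%. The median log2 change was -0.26 over the 8 genes and 0.02 for the median gene of all. At least 1 of the 8 genes was lower with 57 compounds and at least 1 was higher with 5. All 8 lay below 0 with 54 compounds and above 0 with 8. Compounds share vehicle arrays, so their values are not independent of one another. Vehicle arrays of 0.67 d and 1 d also shared culture days, which the fit did not take into account. The counts depended on the replicates and times used: without replicate 1 they were 102 lower and 11 higher, at 0.67 d alone 54 and 1, at 1 d alone 75 and 2, and with the replicate number as a block 221 and 22. These counts stand without the shares over all genes in the same settings.

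**Figure D2:**
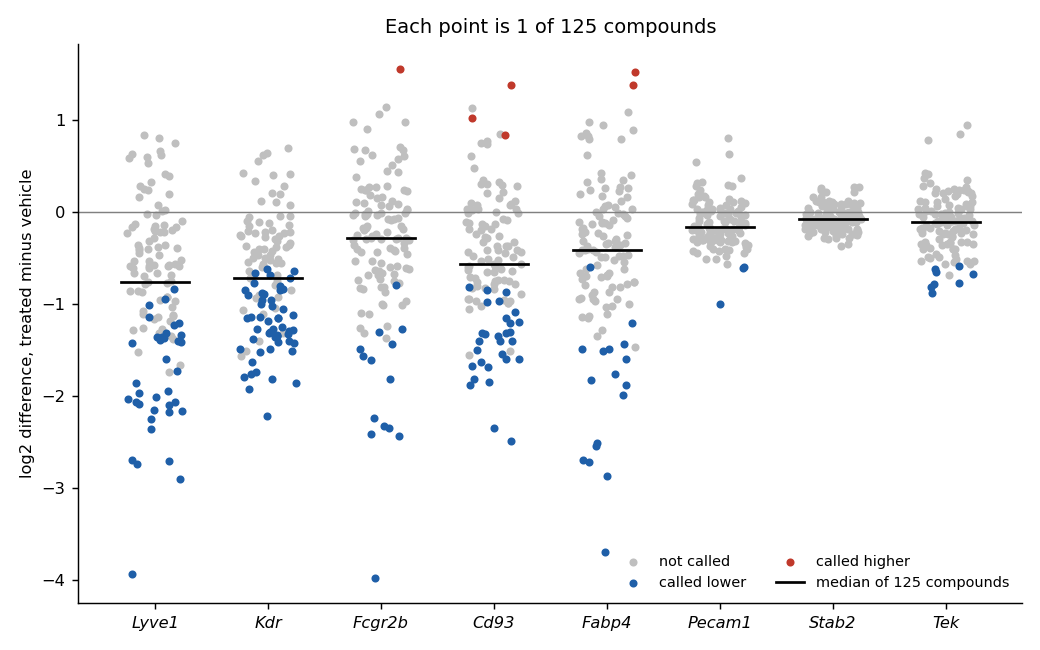
Log2 change of each gene with each of 125 compounds against the vehicle arrays that name it, one point per compound, blue where called lower, red where called higher, with a bar at the median. Points of Kdr, Lyve1 and Cd93 lie mostly below 0, with 53, 36 and 29 lower calls, and those of Stab2 stay near 0 with none.

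The receptor Kdr was called lower most often, with 53 compounds and none higher. It lay below 0 with 111 of 125 compounds, with a median change of -0.72, and 3.12% of all genes had as many lower calls. The hyaluronan receptor Lyve1 followed, with 36 lower and a median of -0.76, and then Cd93, with 29 lower, 3 higher and a median of -0.57. Fabp4 had 17 lower and 2 higher, and Fcgr2b 14 lower and 1 higher. Tek was lower with 8 compounds and Pecam1 with 3, Mln-518, clozapine and staurosporine. Stab2 was called with none, lay below 0 with 94 compounds, and had a median of -0.08. The median gene of all had 0 lower calls. Where the median over all probe sets of a gene replaced the highest one, Kdr was lower with 28 compounds, since its other probe set did not follow the one used (r = -0.20 over arrays). The other probe set of Cd93 followed the one used only weakly (r = 0.18) and was flat, with an SD of 0.15 over all arrays. The calls of Cd93 thus also rest on the probe set used. For Lyve1 the probe sets correlated at 0.98.

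The calls were nested in part. Kdr was lower in 33 of the 36 compounds that lowered Lyve1, the other 3 being daunorubicin, TGF Beta-1 and valproic acid, and Lyve1 in 33 of the 53 that lowered Kdr. Lyve1, Kdr and Cd93 were lower together with 26 compounds. All of Lyve1, Kdr, Fcgr2b, Cd93 and Fabp4 were lower with 7: carmustine, cyclophosphamide, doxorubicin, etoposide, idarubicin, Mln-518 and staurosporine. Of these, carmustine and cyclophosphamide are alkylating agents, doxorubicin, idarubicin and etoposide act on topoisomerase II, and staurosporine is a broad kinase inhibitor. Mln-518 is an inhibitor of type III receptor tyrosine kinases such as FLT3, KIT and PDGFR.

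Mln-518 at 51 uM lowered 7 of the 8 genes, where 9.66% of all genes were lower. Lyve1 was 3.73, 3.86 and 4.20 at 0.67 d and 3.89, 3.98 and 3.98 at 1 d, against 6.48, 7.98 and 8.85 for the lowest, median and highest of 8 vehicle arrays. The groups did not overlap, and the fall was 3.93 on the log2 scale, 15.2-fold (SE 0.29, adjusted p = 1.19e-07 by limma). Fcgr2b was 3.65, 3.97 and 4.91 at 0.67 d and 3.51, 3.55 and 3.69 at 1 d, against 7.06, 7.60 and 8.99 in the vehicle arrays. It fell by 3.97, 15.7-fold (SE 0.30, adjusted p = 1.61e-07), again without overlap. Here and below, a lack of overlap stands without the share of all genes that did not overlap in the same arrays. For both genes the lowest value of all 939 arrays was among these, so the folds are those of RMA values at the low end of the scale and the real change may be larger. Fabp4 was 4.11, 4.72 and 5.17 and then 4.05, 4.34 and 4.69, against 6.99, 8.17 and 9.36. Its fall was 3.69, 12.9-fold (SE 0.31, adjusted p = 4.25e-07).

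The receptors Kdr and Tek, Cd93 and Pecam1 were also called lower with Mln-518. Kdr was 4.00, 4.00 and 4.04 at 0.67 d and 3.77, 3.88 and 4.18 at 1 d, against 5.37, 6.06 and 7.23 in the vehicle arrays. It fell by 2.22, 4.66-fold (SE 0.25, adjusted p = 5.36e-06), and Cd93 by 2.48, 5.59-fold (SE 0.26, adjusted p = 3.12e-06). Pecam1 was 4.64, 4.72 and 4.78 and then 4.52, 4.66 and 4.74, against 5.11, 5.62 and 6.74, a fall of 1.00 (SE 0.20, adjusted p = 0.000793). Tek fell by 0.88 (SE 0.17, adjusted p = 0.000739), and neither gene overlapped the vehicle arrays. Stab2 differed by -0.26 (adjusted p = 0.0731), with overlap.

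**Figure D3:**
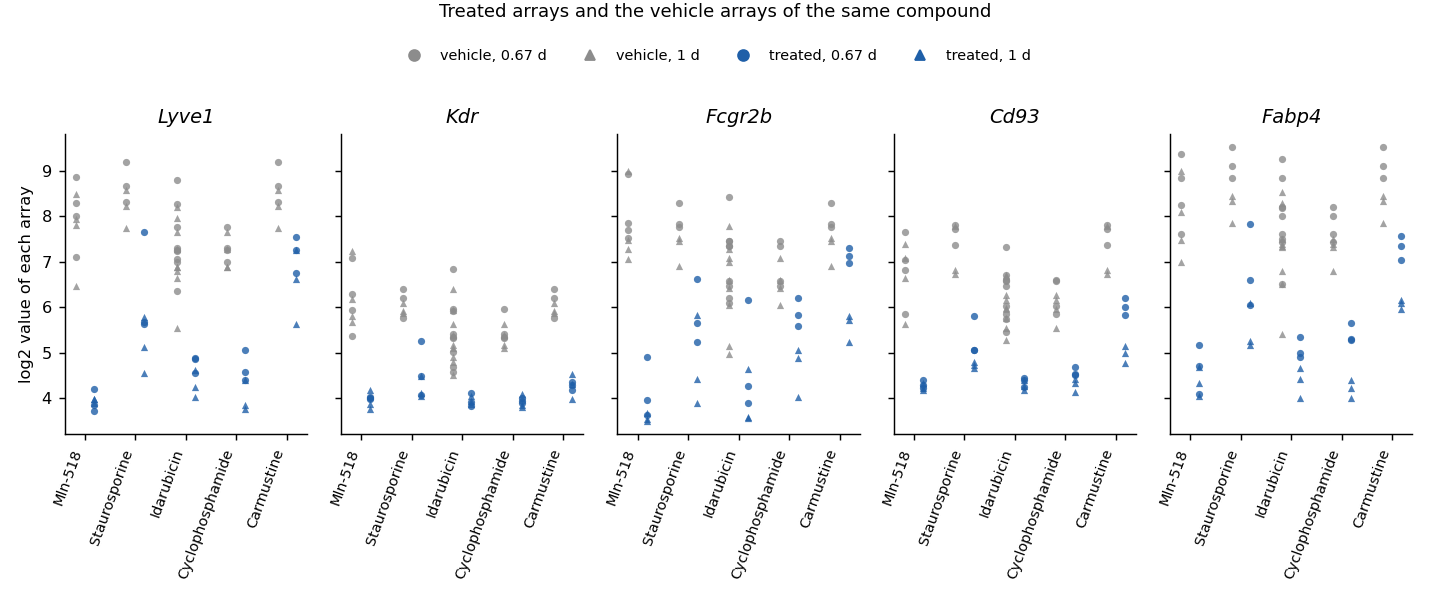
Log2 values of Lyve1, Kdr, Fcgr2b, Cd93 and Fabp4 in each treated array of the 5 compounds that lowered the most genes (blue) and in the vehicle arrays that name them (grey), circles for 0.67 d and triangles for 1 d. With Mln-518 every treated array lies below every vehicle array for these 5 genes, while Fcgr2b with carmustine overlaps its vehicle arrays. The share of all genes separated in this way is not given.

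Kupffer cell and macrophage genes moved with Mln-518 too. Of 13 measured, 11 were called lower, among them C1qa by 4.70, Cd5l by 5.90, Csf1r, a type III receptor tyrosine kinase, by 3.11, and Cd163 by 2.54 on the log2 scale. Cd68 (0.30) and Aif1 (0.02) were not called. The mean of the list was 5.03 to 5.32 in the treated arrays and 7.57 to 8.40 in the vehicle arrays, and the part of macrophages in the fall of Fcgr2b, Cd93, Fabp4 and Pecam1 was not tested. The mean over 11 hepatocyte genes was 10.8 to 11.9 against 12.1 to 12.5, with 4 genes lower. Of 27 other endothelial genes, 5 were lower, Tie1 by 1.00, Emcn by 0.94, Ramp2 by 1.11, Dnase1l3 by 1.27 and Sox18 by 1.01, and Esam was higher by 1.23.

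Staurosporine at 1.3 uM also lowered 7 of the 8 genes, where 7.78% of all genes were lower. Lyve1 was 5.64, 5.67 and 7.66 at 0.67 d and 4.56, 5.14 and 5.80 at 1 d, against 7.74 to 9.18 in 6 vehicle arrays. All treated arrays lay below, and the fall was 2.70 (SE 0.34, adjusted p = 4.55e-05). Cd93 was 5.05, 5.06 and 5.81 and then 4.67, 4.74 and 4.80, against 6.73 to 7.80, a fall of 2.35 (SE 0.18, adjusted p = 1.08e-06). Of 13 macrophage genes, 1 was lower, the mannose receptor gene Mrc1, which sinusoidal endothelium also expresses, and the list mean was 5.32 to 5.60 against 5.40 to 5.67. Those vehicle values were already low, against set means of 7.98 and 7.85 in the vehicle sets of Mln-518, which left little room for a fall. Of the 11 hepatocyte genes 0 were lower and Cps1 was higher.

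Drugs that damage DNA or act on topoisomerase II were divided. Of 9 alkylating and platinum agents, grouped after the values were seen and tested at different doses, cyclophosphamide and carmustine lowered 6 of the 8 genes each. Ifosfamide and lomustine lowered Lyve1, Kdr, Cd93 and Fabp4, 4 of 8 each, with 15.4% and 15.6% of all genes lower. Cisplatin lowered Kdr alone, 1 of 8, with 14.5% of all genes lower. By limma, 0 of the 8 were called with chlorambucil, busulfan, streptozotocin and N-Nitrosodiethylamine, where 0.162%, 0.141%, 3.11% and 1.31% of all genes were lower, and 4, 1, 2 and 0 of the 8 had an unadjusted p under 0.05. All 8 genes lay below 0 with each of those last agents.

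Cyclophosphamide at 1320 uM lowered 6 of the 8, where 6.08% of all genes were lower. Lyve1 was 4.40, 4.57 and 5.06 at 0.67 d and 3.77, 3.86 and 4.41 at 1 d, against 6.88 to 7.76 in 8 vehicle arrays. The groups stood far apart, and the fall was 2.91, 7.49-fold (SE 0.17, adjusted p = 2.21e-08). Fabp4 was 5.27, 5.30 and 5.66 and then 4.02, 4.23 and 4.40, against 6.80 to 8.20, and fell by 2.72 (SE 0.15, adjusted p = 1.89e-08). Idarubicin at 1.5 uM lowered 6, where 7.04% of all genes were lower. Lyve1 was 4.55, 4.87 and 4.89 and then 4.03, 4.24 and 4.62, against 5.54, 7.24 and 8.78 for the lowest, median and highest of 18 vehicle arrays. It fell by 2.74 (SE 0.29, adjusted p = 4.14e-08), Fabp4 by 2.86 (SE 0.34, adjusted p = 1.71e-07) and Fcgr2b by 2.41 (SE 0.37, adjusted p = 1.01e-05). For Fcgr2b 1 replicate number decided the call, since without replicate 1 the fall was 1.22 and was not called.

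Carmustine at 550 uM lowered 6 of the 8, but 14.2% of all genes were lower with it. Kdr was 4.18, 4.29 and 4.37 at 0.67 d and 3.99, 4.33 and 4.54 at 1 d, against 5.76 to 6.40 in 6 vehicle arrays. It fell by 1.76 (SE 0.12, adjusted p = 4.38e-07), and Cd93 by 1.88 (SE 0.18, adjusted p = 3.80e-06). Doxorubicin, etoposide and daunorubicin had few lower calls among all genes. With doxorubicin at 1.5 uM 5 of the 8 genes were lower against 0.387% of all genes, and with etoposide at 125 uM 5 of 8 against 0.739%. Daunorubicin at 1.5 uM lowered 4 of 8, Lyve1, Fcgr2b, Cd93 and Fabp4, against 0.499%. Etoposide lowered Fabp4 by 2.54 (SE 0.48, adjusted p = 0.000365) and Fcgr2b by 2.32 (SE 0.52, adjusted p = 0.00202), and its 6 Fcgr2b values lay between 3.92 and 5.04. Doxorubicin lowered Cd93 by 1.54 (SE 0.16, adjusted p = 0.000108). Valdecoxib, a cyclooxygenase inhibitor, lowered 5 at 450 uM, Lyve1, Kdr, Cd93, Fabp4 and Tek, with 13.3% of all genes lower.

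**Figure D4:**
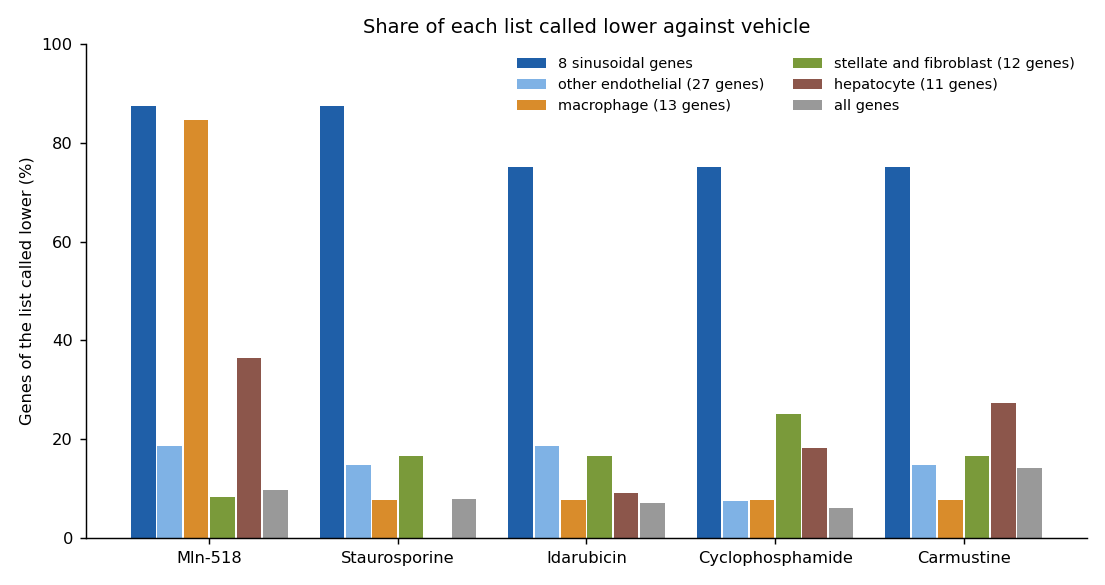
Share of genes called lower, in percent, in the 8 endothelial genes, 27 other endothelial, 13 macrophage, 12 stellate and fibroblast and 11 hepatocyte genes and in all genes, with the 5 compounds that lowered the most of the 8. The macrophage bar is 11 of 13 genes with Mln-518 and 1 of 13 with each of the other compounds plotted. Macrophage genes were already low in the vehicle arrays of those other compounds, so few falls could be called there.

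With these drugs the macrophage list held 1 lower gene of 13 for cyclophosphamide, idarubicin, carmustine and doxorubicin, Mrc1 each time, and 0 for etoposide and daunorubicin. The hepatocyte list held 2 lower of 11 for cyclophosphamide, 1 for idarubicin, 3 for carmustine and 0 for doxorubicin, daunorubicin and etoposide. Of the 27 other endothelial genes, 5 were lower with idarubicin, 4 with carmustine and with staurosporine, 3 with doxorubicin, 2 with cyclophosphamide and with etoposide, and 0 with daunorubicin. Eng, a co-receptor for TGF beta, was higher with carmustine by 1.20. Dnase1l3, a secreted nuclease, and Sox18, an endothelial transcription factor, were among those lowered by idarubicin, carmustine and staurosporine. Vehicle levels of the macrophage list were themselves low in several sets of the first campaign, with set means of 5.38 to 5.55, against 7.67 to 7.98 in the second campaign. Set 6, which names cyclophosphamide, doxorubicin and idarubicin, had a mean of 5.70. Set 7, which names carmustine and staurosporine, had 5.55, and set 8, which names daunorubicin and idarubicin, 5.45. Little room was left for a fall, so the macrophage counts with these drugs cannot show that macrophages were spared.

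The 3 anthracyclines, daunorubicin, doxorubicin and idarubicin, were all tested at 1.5 uM, and the treated arrays were set against each other directly. The trio was chosen after the values were seen. Idarubicin lacks the methoxy group that daunorubicin carries on its ring system, and doxorubicin carries a hydroxyl group that daunorubicin lacks. Over the 3 pairs, with p-values adjusted over all 42654 gene and pair tests, 0 of the 8 genes differed at an adjusted p of 0.01. The widest gap was in Fabp4, doxorubicin above idarubicin by 1.04 (95% interval 0.23 to 1.85, adjusted p = 0.0750 by limma). Lyve1 followed, with doxorubicin above idarubicin by 0.99 (95% interval 0.25 to 1.72, adjusted p = 0.0599). These intervals leave room for a difference of over 1.5-fold. The labels do not name the same vehicle arrays for all 3.

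With 15 compounds, 12% of the 125, Kdr was the only gene of the 8 past both bounds. The other genes were not thereby at 0. Lyve1 lay below 0 with all 15, between -0.36 and -1.74, and further down than Kdr with 4, Fcgr2b lay below 0 with 11 and Fabp4 with 13. The largest Kdr change of these was with gemfibrozil, a fibrate. Kdr was 3.99, 4.55 and 5.25 at 0.67 d and 4.09, 4.32 and 4.58 at 1 d, against 5.59, 6.22 and 7.80 in its vehicle arrays, without overlap. It fell by 1.92 (SE 0.34, adjusted p = 0.000944), while Lyve1 differed by -1.31, Fcgr2b by 0.67 and Fabp4 by 0.26, none called. Without the array labelled gemfibrozil that went against its label, these changes were -1.89, -1.14, 1.09 and 0.66. Leaving out replicate 2 gave a Kdr fall of 1.37 that was not called. Omeprazole, a proton pump inhibitor, lowered Kdr by 1.80, with values of 4.15, 4.17 and 4.62 at 0.67 d and 3.82, 4.43 and 4.62 at 1 d. Venlafaxine, an antidepressant, lowered Kdr by 1.41, with Lyve1 at -1.74, and zidovudine, a nucleoside analog, lowered it by 1.35, with Lyve1 at -1.12. Clozapine, an antipsychotic, lowered Kdr by 1.86 (SE 0.10, adjusted p = 4.71e-08) together with other genes. Its Kdr values were 4.25, 4.26 and 4.39 and then 3.95, 4.09 and 4.14, against 5.76, 6.01 and 6.40.

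All 4 proton pump inhibitors lowered Kdr, at doses that differ and were chosen for description after the values were seen. The log2 change was -1.80 for omeprazole at 400 uM, -1.41 for pantoprazole at 650 uM, -1.33 for rabeprazole at 333 uM and -0.96 for lansoprazole at 240 uM. Lyve1 was lower with pantoprazole by 1.97, rabeprazole by 2.01 and lansoprazole by 1.36, and stood at -0.92 with omeprazole, not called. Fcgr2b was called with none of them, at -0.02, 0.18, -0.18 and -0.41. Omeprazole lowered 1 of the 8 genes, where 7.25% of all genes were lower. Pantoprazole and rabeprazole lowered 3, Kdr, Lyve1 and Cd93, where 15.1% and 7.86% of all genes were lower, and lansoprazole lowered 3, Kdr, Lyve1 and Fabp4, where 11.4% were.

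Among the kinase inhibitors named for Kdr, gefitinib at 35 uM lowered it by 1.32 (adjusted p = 0.00505). Erlotinib at 10 uM gave -1.11 (adjusted p = 0.0134) and imatinib at 15 uM -0.41 (adjusted p = 0.615), neither called. Among the fibrates, clofibrate gave 0.61 (adjusted p = 0.360, and 0.78 without the array that went against its label) and fenofibrate 0.11, beside the fall with gemfibrozil. Atorvastatin at 250 uM lowered Kdr by 0.85 (adjusted p = 3.37e-05), and also Lyve1 by 2.25 and Cd93 by 1.21. The other statins were not called, cerivastatin at -0.93 (adjusted p = 0.214) and simvastatin at -0.41 (adjusted p = 0.0929). Isotretinoin at 500 uM lowered Kdr by 1.05 (adjusted p = 1.78e-05) and Fabp4 by 0.60, while tretinoin at 156 uM gave 0.20 for Kdr and 0.94 for Fabp4 (adjusted p = 0.772 and 0.243). TGF Beta-1 at 5 ng/ml lowered Lyve1 by 1.20 (adjusted p = 0.00655), with -0.90 for Kdr (adjusted p = 0.0160) and -1.28 for Fabp4 (adjusted p = 0.0139). Doses differ within each class, so these values stand side by side.

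Rises were few. Dexamethasone, a glucocorticoid, at 456 uM raised Fcgr2b and Fabp4, 2 of the 8 genes, where 4.33% of all genes were higher. Fcgr2b was 7.93, 8.61 and 8.999 at 0.67 d and 7.40, 8.27 and 8.59 at 1 d, against 6.06, 6.59 and 7.45 in the vehicle arrays. Only the lowest treated array overlapped them, and the rise was 1.55, 2.92-fold (SE 0.23, adjusted p = 7.55e-05). Fabp4 rose by 1.38 (SE 0.22, adjusted p = 0.000133). In the same arrays Lyve1 fell by 0.84 (adjusted p = 0.000110) and Kdr by 1.31 (adjusted p = 6.05e-07), so the genes of this endothelium parted. Of the hepatocyte genes 2 of 11 were higher, Fgb and Cps1, and of the macrophage genes none was called. Against all vehicle arrays of the campaign both rises missed the bound, at 1.27 for Fcgr2b and 1.11 for Fabp4.

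Each of the other 4 compounds with a rise raised 1 gene. Colchicine, which blocks microtubules, at 2000 uM raised Fabp4 by 1.52 (SE 0.47, adjusted p = 0.00667), with 6.11% of all genes higher. Its Fabp4 values were 8.26, 10.48 and 10.67 and then 7.26, 8.99 and 9.30, against a wide 5.41, 7.61 and 10.13 in the vehicle arrays. The same arrays had 4 of the 8 genes lower, Fcgr2b by 1.60, Lyve1 by 1.37, Cd93 by 1.15 and Kdr by 0.91, where 9.94% of all genes were lower. At 1000 uM Fabp4 stood at 0.67 (adjusted p = 0.249), while Fcgr2b fell by 2.39 (adjusted p = 4.95e-05) and Lyve1 by 1.57 (adjusted p = 0.00319). Cd93 rose with tacrolimus by 1.38 (SE 0.34, adjusted p = 0.00355), sporidesmin A by 1.02 (SE 0.30, adjusted p = 0.00615) and isotretinoin by 0.83 (SE 0.19, adjusted p = 0.00149), where 5.32%, 4.85% and 9.32% of all genes were higher. These rises were the least firm of the named results. Without replicate 2 those with colchicine (1.37), sporidesmin A (0.85) and isotretinoin (0.77) were not called, and without replicate 1 those with tacrolimus (0.99) and sporidesmin A (1.28) were not. With the replicate number as a block the rise with sporidesmin A (1.04, adjusted p = 0.0168) was not called.

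Valeric acid at 23000 uM, a short fatty acid, split the 8 genes another way. Fcgr2b was 5.28, 5.33 and 6.08 at 0.67 d and 4.00, 4.43 and 4.96 at 1 d, a fall of 2.43 (SE 0.45, adjusted p = 0.000397). Fabp4 differed by 0.86 (adjusted p = 0.305) and Kdr by -0.22 (adjusted p = 0.774), neither called, and Tek fell by 0.77 (adjusted p = 0.00644). Without replicate 1 the fall of Fcgr2b was 2.01 and was not called.

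No change by exposure time was called for these genes. In the test of treatment by time, 0 of 1000 gene and compound pairs passed an adjusted p of 0.01 by limma, 19 had an unadjusted p under 0.05, and 0.0298% of pairs passed over all genes. With the replicate number as a block 0 passed and 70 had an unadjusted p under 0.05 by limma. Over all genes 1112 pairs passed with the block, against 530 without it. The fit without the block did not pair the 2 times of a culture, and its 19 of 1000 lay below the share of 0.05 that the bound passes by chance. That test was thus likely conservative, and 0 calls does not show that the changes were the same at both times.

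A second measurement existed for 7 compounds, run again at 1 d in a later campaign at a dose in common. Mln-518, staurosporine, cyclophosphamide, idarubicin and carmustine were not among them, so their falls had no repeat. In the main comparison chlorpromazine had 3 of the 8 genes lower and omeprazole 1. Allyl alcohol, busulfan, carbon tetrachloride, clofibrate and methapyrilene had 0. The sign was the same in 44 of 56 gene and compound pairs, against 63% of pairs over all genes, and both values lay below 0 in 36 of 56, against 28%. The one value called was that of Kdr with omeprazole in the later campaign, where it fell by 1.62 (SE 0.23, adjusted p = 0.00249) after -1.85 (SE 0.68, adjusted p = 0.0802) in the first. Over all genes 1.35% were called lower and 1.19% higher. Chlorpromazine, an antipsychotic, had all 8 genes below 0 both times, with Lyve1 at -1.48 (SE 0.40, adjusted p = 0.0455) and -1.57 (SE 0.43, adjusted p = 0.135). Clofibrate had 0 of 8 below 0 in both, and methapyrilene 5, with Kdr at -1.13 and -0.72 and Fcgr2b at -0.42 and 0.41. Of the 7, 6 share the same 3 vehicle arrays in the later campaign, so their repeats are tied to each other. With the replicate number as a block, 15 values were called over both campaigns, a count given without its share over all genes.

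**Figure D5:**
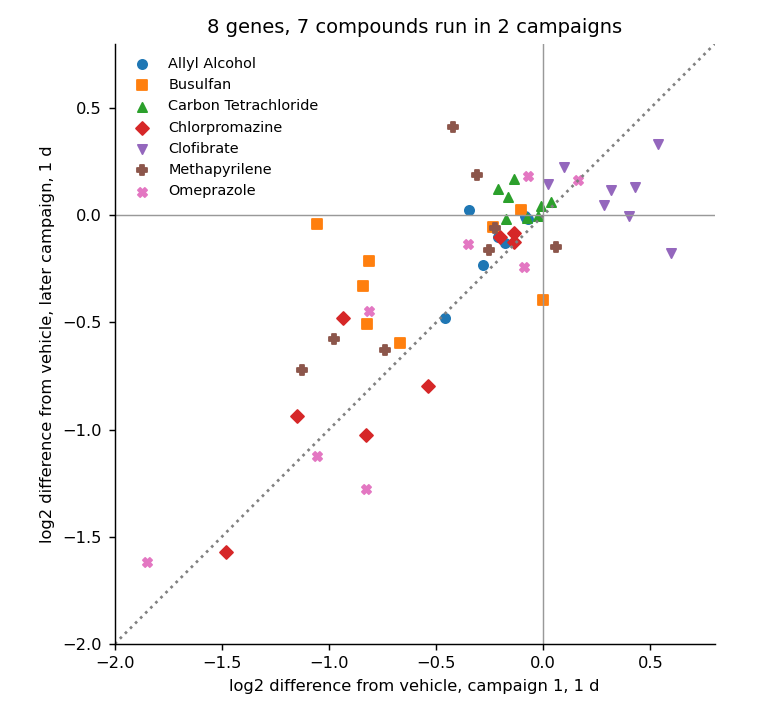
Log2 change at 1 d of each gene with 7 compounds in the first campaign (horizontal axis) and in the later one (vertical axis). Of 56 points 36 lie to the lower left, where both changes are below 0, and the dotted line marks equal changes.

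In the dose series of the last campaign, 6 compounds at 3 doses with 3 arrays each, 0 of 48 slopes passed the bound by limma, an adjusted p of 0.05 over all genes. One slope, that of Stab2 with clofibrate, 0.20 per dose step, had an unadjusted p under 0.05 in the same fit. Over all genes 0.00117% of slopes passed.

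The families around the 8 genes gave other counts over the 125 compounds. Other endothelial genes, 27 in all, were lower in 2.99% and higher in 0.859% of pairs, led by Dnase1l3 with 36 lower and by Esam with 19 lower and 17 higher. Vascular growth factor and angiopoietin signals, 13 genes, were lower in 2.28% and higher in 7.94%. In that family the ligand gene Vegfb was higher with 60 compounds and the co-receptor Nrp2 with 27, while the co-receptor Nrp1 was lower with 12 and Tie1, the partner of Tek, with 8. Hyaluronan genes, 7 in all, were higher in 11.1%, with the receptor Cd44 higher with 58 compounds and Hmmr with 22, against no rise of Lyve1 or Stab2. Fatty acid binding proteins, 6 besides Fabp4, were lower in 17.2% and higher in 8.8%, with Fabp2 lower in 76 and Fabp5 higher in 49. The other Fc gamma receptor and adaptor genes, 4 in all, were lower in 5.8%, Fcgrt with 17 compounds and Fcgr1a with 6. Among other cell types, macrophage genes were lower in 6.71% of pairs, stellate and fibroblast genes in 5.93%, cholangiocyte genes in 3.84%, leukocyte genes in 0.4% and hepatocyte genes in 17.8%.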

How the data were processed

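Poly A RNA was hybridized to Affymetrix rat arrays. The authors deposited log2 values for 31099 probe sets on each of 939 arrays, and these were not rescaled. The submitters' notes name RMA without a version, and the paper's methods describe its frozen form. The platform annotation named a single gene for 20832 probe sets, more than 1 for 436 and no gene for 9831, and of the first 20764 matched RefSeq. The probe set with the highest mean stood for each of 14218 genes.

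Each compound was compared with the vehicle arrays naming it by limma 3.58.1 in R 4.3.3 with exposure time as a covariate. Calls used an adjusted p of 0.01 (Benjamini-Hochberg over all genes) and 1.5-fold. Recovery was checked on simulated data. The number of arrays limits the precision. Vehicle titles carry a number taken here as a culture date, which differs between replicates in most sets. The vehicle arrays of 0.67 d and 1 d came from the same dates, and the compound fits counted them as independent. Those of staurosporine were from culture days 23 to 25 and those of Mln-518 from days 45 to 48, each at both times. Separate cultures were thus fewer than arrays, and the standard errors and p-values may be too small. No label says that treated replicates are separate cultures, so their spread may be technical. Labels of TGF Beta-1 and MLN-518 carry running numbers and were each taken as 1 compound. Over all genes, same-numbered treated and vehicle arrays deviated together in part. Every correlation exceeded 0.1 in 105 of 183 groups and not in the other 78. The median was 0.30 for the same number and -0.18 for others. By this criterion over all genes the fit stayed without the block, and the blocked counts are given beside it. Over the 8 genes alone, with replicate numbers pooled, the median correlation was 0.77. For these genes the unblocked fit thus leaves out a stronger pairing. The genes and lists were chosen with earlier results of these data known. Named were all 8 genes, the 3 largest called falls and rises of each, the 5 compounds with most calls in each direction, the 3 nearest genes in pattern, the 2 genes of each list with most calls in each direction, and 5 drug classes whatever their calls. Other genes and compounds with values were chosen after those were seen. Alternatives were other controls, bounds, times, scalings, probe set rules, date blocks and left-out replicates.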

Additional observations from a re-analysis of the deposited data

Results flagged for a closer look

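In 7 of 131 groups of 4 to 10 arrays, 1 array stood far from the others by Dixon's test, where chance gives about 1 in 20. Fcgr2b was 5.12 in 1 vehicle array of set 10 at 0.67 d, with the nearest at 7.34 and the other end at 7.73. Cd93 was 7.38 in 1 vehicle array of set 13 at 0.67 d, with the nearest at 5.81. In set 6 at 0.67 d, 1 array was high for Kdr at 5.97, with the nearest at 5.42, and 1 was high for Stab2 at 5.11, with the nearest at 4.82. Among treated arrays, as log2 differences from the vehicle mean of the same time, Fcgr2b with Mln-518 was -3.09 in 1 array, with the nearest at -4.02. Cd93 with staurosporine was -1.82 in 1 array, with the nearest at -2.31, and Pecam1 with clozapine was -1.32 in 1, with the nearest at -0.59. The cause was not tested for any of them.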

How the results depend on the processing

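In place of 160, lower calls numbered 54 at 0.67 d alone, 75 at 1 d alone and 99 with the genes of lowest mean left out, which leaves Kdr, Pecam1, Stab2 and Tek untested, and between 102 and 139 with 1 replicate number left out. In place of 6, higher calls numbered 1 at 0.67 d alone, 2 at 1 d alone, 3 without moderation, 16 against all vehicle arrays of the campaign and between 7 and 11 with 1 replicate number left out. With the replicate number as a block there were 221 lower and 22 higher calls, and 15 calls among the repeats in place of 1. Shares over all genes are not given for these alternative counts, so their changes cannot be set against those of all genes. The block was not used for the reported values, since over all genes the numbers met the criterion for pairing in some groups of arrays and not in others. The dose series had between 0 and 1 call with 1 replicate left out, the 1 being without replicate 2. Kdr at 1 d against 0.67 d was -0.022 with the median of probe sets (adjusted p = 0.518). Over the 27 named gene and compound pairs, 386 of 450 recomputed values kept their call, 64 lost it and 0 changed direction. The fall of Fabp4 in culture, the 28 co-varying pairs and the 0 calls by exposure time held in all alternatives run. With the array of clofibrate and that of gemfibrozil that went against their labels left out, the counts were 160 and 6. Background signal limits the genes of lowest mean most.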
